A study of Mus musculus with 2 samples.

Results

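The Mir183, Mir96 and Mir182 genes lie side by side on chromosome 6 of the mouse and encode 3 related microRNAs. They were taken by their GENCODE names from a table of 1973 microRNA genes, and all 3 were in it. The microRNAs were sequenced from whole lung of healthy mouse embryos at embryonic day 15.5, of the strain given as B6NCrl, both sexes mixed and untreated as far as the labels say. The 2 libraries form 1 group, embryonic lung, numbered as biological replicates 1 and 2. Lungs of 78 embryos were pooled for replicate 1 and lungs of 62 embryos for replicate 2. Since the labels give both the same donor identifier, the SDs below describe 2 pools of 1 strain. With 1 group the data hold levels and ratios within the lung and no comparison between conditions.

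A microRNA gene is transcribed into a longer RNA that folds into a hairpin, the precursor, from which enzymes cut a short mature product out of 1 or both arms (5p and 3p). The seed, bases 2 to 8 of the mature product, pairs with sites in messenger RNAs and lowers their output. Mir183, Mir96 and Mir182 are known as a polycistron, a set of precursors made from a shared primary transcript. The cluster is best known from sensory cells such as hair cells of the inner ear, photoreceptors and olfactory neurons, and changes in the seed of miR-96 cause hearing loss in mice and in humans. In human breast cancer cells miR-96 and miR-182 are known to act on FOXO1, a transcription factor that restrains the cell cycle, and in lung the cluster is best known from carcinomas.

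The mature 5p products are shown because they carry the likeness of the 3 genes, with the seed in capitals. The sequences are from RefSeq on GRCm38.p6, in which all 3 members were found, and are written 5′ to 3′.
mmu-miR-183-5p: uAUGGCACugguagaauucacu
mmu-miR-96-5p: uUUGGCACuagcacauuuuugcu
mmu-miR-182-5p: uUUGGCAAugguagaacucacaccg
mmu-miR-1271-5p: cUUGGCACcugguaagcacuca

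No pair of the 3 members had the same seed, but the seeds were close. Counted from 1 at the 5′ end, miR-182-5p and miR-96-5p differed at A8C, which left 6 of 7 seed bases alike. The seeds of miR-96-5p and miR-183-5p differed at U2A, again with 6 of 7 alike. The seeds of miR-182-5p and miR-183-5p carried both changes, U2A and A8C, with 5 of 7 alike. Over the whole 5p product the order was another. Aligned from the 5′ end without gaps and with the seed included, miR-182-5p matched miR-183-5p at 18 of 22 positions (81.8%), whereas miR-96-5p matched miR-183-5p at 13 of 22 (59.1%) and miR-182-5p matched miR-96-5p at 12 of 23 (52.2%). With the seed left out the matches were 13 of 15, 7 of 15 and 6 of 16 positions for the same pairs. The perfect target sites of the 3 seeds, written as DNA, are GTGCCAT for miR-183-5p, GTGCCAA for miR-96-5p and TTGCCAA for miR-182-5p.

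The 3p products shared less, and are shown with bases 2 to 8 in capitals to set them beside the 5p arms.
mmu-miR-183-3p: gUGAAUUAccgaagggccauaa
mmu-miR-96-3p: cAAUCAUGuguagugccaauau
mmu-miR-182-3p: gUGGUUCUagacuugccaacu

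Their ungapped matches were 7 of 22 positions between miR-96-3p and miR-183-3p, 7 of 21 between miR-182-3p and miR-183-3p, and 7 of 21 between miR-182-3p and miR-96-3p. Among 1738 mature mouse products searched, miR-1271-5p, from the gene Gm24195 on chromosome 13, was the only other one with the same bases 2 to 8 as miR-96-5p. The only other product with the same bases 2 to 8 as a 3p arm was miR-3475-5p, which shares them with miR-96-3p. Bases 2 to 7 of miR-182-5p were shared by miR-96-5p and miR-1271-5p and by no other product searched. No other product had bases 2 to 8, or 2 to 7, of miR-183-5p.

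The precursors are shown whole, with both mature products in capitals, because the deposited counts are per precursor and do not separate the arms.
Mir183: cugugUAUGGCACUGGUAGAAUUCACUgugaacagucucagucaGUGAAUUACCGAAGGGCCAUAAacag
Mir96: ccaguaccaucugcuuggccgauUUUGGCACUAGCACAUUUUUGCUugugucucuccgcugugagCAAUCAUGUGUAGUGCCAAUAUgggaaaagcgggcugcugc
Mir182: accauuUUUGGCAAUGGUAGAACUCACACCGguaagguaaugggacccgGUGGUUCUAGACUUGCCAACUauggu

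In the mm10 assembly, which denotes GRCm38, Mir183 (ENSMUSG00000065619.2) lies at chr6:30169668-30169737, Mir96 (ENSMUSG00000065586.1) at chr6:30169446-30169551 and Mir182 (ENSMUSG00000076361.1) at chr6:30165918-30165992, all on the minus strand. Read along that strand, Mir183 comes first, Mir96 follows after a gap of 116 bp and Mir182 after another 3453 bp, and the whole cluster spans 3820 bp. In the GENCODE annotation no gene contains any of the 3 precursors on either strand, so they are intergenic and neither exonic nor intronic. The nearest protein-coding genes are Nrf1, 12459 bp away on the side of Mir182, and Ube2h, 41551 bp away on the side of Mir183. The long noncoding gene Rncr4, known from mouse retina, begins 3155 bp from Mir183 on the opposite strand. By RNAfold, the predicted folding energy per nucleotide was -0.40 kcal/mol for Mir182, -0.37 kcal/mol for Mir183 and -0.45 kcal/mol for Mir96, beside a median of -0.43 kcal/mol over 309 detected precursors with a RefSeq hairpin.

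On the annotated strand, microRNA genes had 5354530 reads in replicate 1 and 6489390 in replicate 2, or 46.9% and 48.0% of all reads. A level is given as CPM, counts per 1000000 such gene counts, so a single count equalled 0.187 and 0.154 CPM. Reads that mapped to several places, 31.4% and 30.6% of all reads, were taken to be in no gene. None of the 3 members shares a run of 20 nt with another precursor, while 923 of 1894 precursors searched do. Intervals below are 95% exact binomial ones. The labels record no molecular identifiers, so the intervals and floors describe counting error alone. As a tissue check, microRNAs known from smooth muscle, endothelium and epithelium and from other parts of the embryo were looked up. None of them is particular to lung, so they cannot test the label. Mir143 of smooth muscle and Mir126a of endothelium were among the 3 highest genes of the table and all 5 members of the epithelial miR-200 family were detected. Mir145a, also of smooth muscle, was far lower than Mir143, at 998 and 1126 CPM in replicates 1 and 2, and ranked 93rd. Mir208a of heart (573 and 255 CPM in replicates 1 and 2), Mir208b of heart (269 and 780 CPM), Mir122 of liver (470 and 278 CPM) and Mir451a of red cells (445 and 585 CPM) were detected too and moved between the libraries more than any member of the cluster. Mir223 of leukocytes (685 and 648 CPM) moved less than Mir96.

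All 3 members were abundant in embryonic lung. Each passed the detection rule of at least 10 counts in both libraries, which 18.1% of the 1973 genes passed, and each had over 1000 counts in both, which 8.36% of the genes had. Mir182 was highest, Mir183 followed close behind and Mir96 was lowest. Mir182 had 4062 CPM in replicate 1 and 4151 CPM in replicate 2, from 21748 and 26937 counts. Mir183 had 3426 and 3405 CPM, from 18345 and 22096 counts. Mir96, the member known from inherited deafness, had 1232 and 1353 CPM, from 6597 and 8783 counts. The libraries of any 2 members did not overlap, and the order was the same in both.

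As means, Mir182 stood at 4106 ± 63.2 CPM, Mir183 at 3416 ± 14.9 CPM and Mir96 at 1293 ± 85.8 CPM (SD, n = 2). These levels placed them 42nd, 53rd and 85th among 1973 genes, where the median detected gene stood at 123 CPM. Together they held 0.872% of the counts in replicate 1 (95% interval 0.864% to 0.880%) and 0.891% in replicate 2 (0.884% to 0.898%), a mean of 0.881% ± 0.0134 (SD, n = 2).

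**Figure D1:**
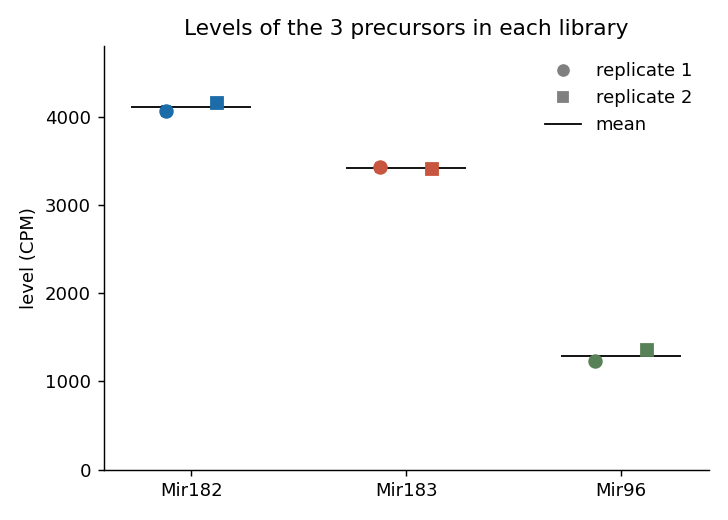
Level of each precursor in CPM, on an axis from 0, with circles for replicate 1, squares for replicate 2, 95% exact binomial intervals mostly smaller than the symbols and a black line at the mean. Mir182 at 4062 and 4151 CPM and Mir183 at 3426 and 3405 CPM sit far above Mir96 at 1232 and 1353 CPM.

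Ratios between members of the cluster were close in both libraries. Mir182 was 1.20-fold higher than Mir183 (1.19-fold in replicate 1 and 1.22-fold in replicate 2), a log2 ratio of 0.27 ± 0.0285 (SD, n = 2). Mir96 was 2.64-fold lower than Mir183, at a log2 ratio of -1.48 in replicate 1 and -1.33 in replicate 2, with a mean of -1.40 ± 0.102. Mir96 was 3.18-fold lower than Mir182, at -1.72 and -1.62, with a mean of -1.67 ± 0.0737. All 3 differences were larger than their SDs over the replicates, and the one between Mir182 and Mir183 was by far the smallest. Since the labels give inserts under 30 nt, the reads were taken to be mature products and were not divided by precursor length. Per base of the precursor, an alternative chosen after seeing the data, the order was the same, with Mir182 1.12-fold above Mir183, and Mir96 at 0.250-fold of Mir183 and 0.223-fold of Mir182. Both libraries share their preparation, and a bias between sequences that both have would not show in these SDs.

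The order of the levels was not the order along the locus. Mir183, the first precursor, and Mir182, the last, were the high ones, and Mir96 between them was the low one although only 116 bp separate it from Mir183. Within the counts of the cluster, Mir182 made up 46.6% in each library (95% intervals 46.1% to 47.0% in replicate 1 and 46.2% to 47.0% in replicate 2). Mir183 made up 39.3% (38.8% to 39.7%) in replicate 1 and 38.2% (37.8% to 38.6%) in replicate 2. Mir96 made up 14.1% (13.8% to 14.4%) in replicate 1 and 15.2% (14.9% to 15.5%) in replicate 2. The share of Mir182 was thus level between the pools, and a small part of the cluster's counts stood with Mir96 in replicate 2 and with Mir183 in replicate 1 beyond counting error.

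**Figure D2:**
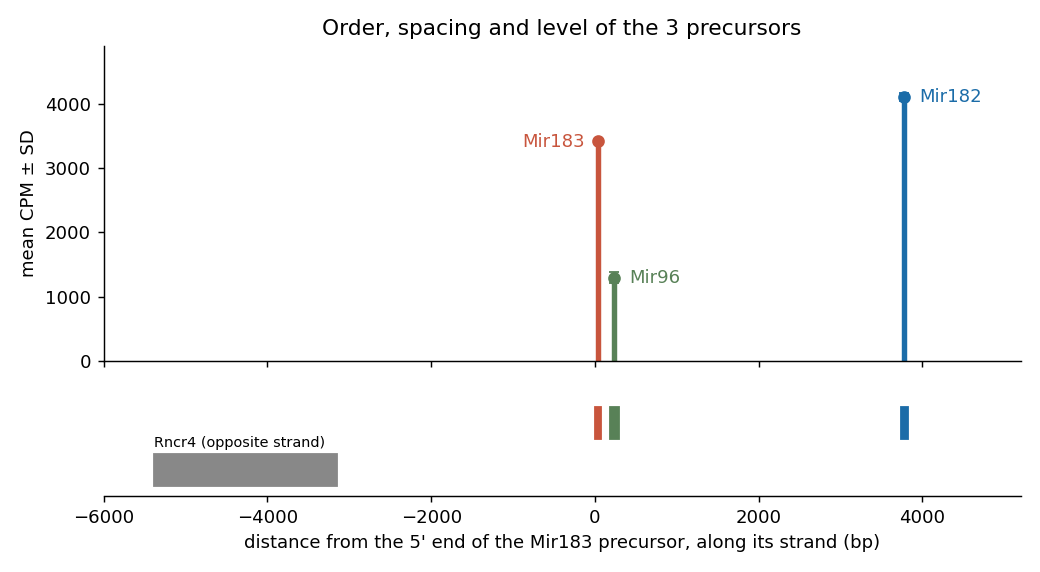
Mean level in CPM (upper panel, bars are SD, n = 2) and position of the precursors (lower panel, coloured boxes, to scale) against distance in bp from the 5′ end of Mir183 along its strand, with the opposite-strand gene Rncr4 as a grey box. Mir96, at 1293 CPM, lies between Mir183 at 3416 CPM and Mir182 at 4106 CPM and close to Mir183.

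The members differed little between the pools. The ratio of replicate 2 over replicate 1 was 1.02-fold for Mir182 (95% interval 1.00 to 1.04), 0.994-fold for Mir183 (0.975 to 1.01) and 1.10-fold for Mir96 (1.06 to 1.13). The interval for Mir183 includes no change, that for Mir182 lies just above it (log2 0.0056 to 0.057) and that for Mir96 lies clear of it. The sign for Mir183 depended on the scaling, with a log2 ratio of -0.0089 by CPM, 0.017 with TMM and 0.0071 with DESeq2 size factors. The median detected gene differed by 1.10-fold in either direction. Of the 357 detected genes, 2.52% had a ratio nearer to 1 than Mir183, 12.9% nearer than Mir182 and 49.3% nearer than Mir96. These intervals compare the libraries and not conditions, since each pool was sequenced once.

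**Figure D3:**
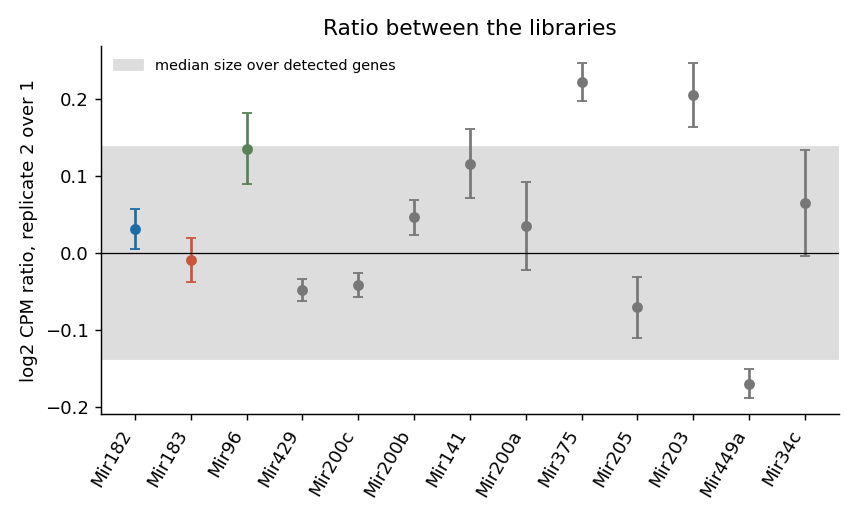
Log2 ratio of the level in replicate 2 over replicate 1 for the members (coloured) and for named epithelial microRNAs (grey), with 95% exact binomial intervals and a grey band for the median size of the ratio over detected genes. The low genes of the multiciliated list are not drawn: Mir34b at -0.33, Mir449b at 0.65 and Mir449c at 0.10. Mir182 and Mir183 lie near 0, at 0.031 and -0.0089, and Mir96 lies at 0.14.

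Compared with microRNAs known from epithelia, the cluster took a smaller share than the miR-200 family, which keeps cells epithelial, and a share near those of lists for special epithelial cells. The lists hold whole genes and not cells, and in these bulk samples fewer cells of a type and less RNA per cell cannot be told apart. The cluster held 0.881% ± 0.0134 of the counts, against 3.17% ± 0.0326 for the 5 miR-200 genes (SD, n = 2), and so was 3.60-fold lower (log2 ratio -1.87 in replicate 1 and -1.82 in replicate 2, mean -1.85 ± 0.0368). That fold is between sums over 3 and 5 genes, so the number of genes enters it. The median gene had 3416 CPM in the cluster and 5107 CPM in the family. Member by member the ranges overlapped: Mir182, Mir183 and Mir96 spanned 1293 to 4106 CPM, and the family spanned 855 CPM for Mir200a to 13376 CPM for Mir429. Mir96 in replicates 1 and 2 had 1232 and 1353 CPM, against 1346 and 1459 CPM for Mir141, so that their ranges overlapped while Mir96 was the lower of the 2 in each library.

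Against Mir375, Mir205 and Mir203, known from neuroendocrine, basal and stratified epithelium, the cluster was 1.11-fold higher (log2 ratio 0.21 and 0.087 in replicates 1 and 2, mean 0.15 ± 0.0870, SD, n = 2), with 0.881% against 0.796% of the counts. Mir182 had 4062 and 4151 CPM, against 4226 and 4930 CPM for Mir375, the neuroendocrine member, so Mir182 was below it in both libraries. Against the multiciliated list of Mir34b, Mir34c, Mir449a, Mir449b and Mir449c the direction was not the same in both libraries. The log2 ratio of the cluster over that list was -0.077 in replicate 1 and 0.11 in replicate 2, with a mean of 0.015 ± 0.130, so the mean difference was smaller than the spread between replicates. Mir449a made up most of that list, at 8571 and 7622 CPM in replicates 1 and 2, and its 4 other genes averaged 11.5 to 589 CPM.

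The cluster is best known from sensory cells, and a list of sensory and neural microRNAs was set beside it. That list holds Mir204 and Mir211, of the retinal pigment epithelium and choroid plexus, and the Mir124a, Mir9, Mir137, Mir128 and Mir7 genes of neurons and neuroendocrine cells. Of 14 genes, 13 were in the table and 7 were detected, beside 18.1% of all 1973 genes. The list took 0.0465% ± 0.00896 of the counts, so the cluster, at 0.881% ± 0.0134, was 19.1-fold higher (log2 ratio 4.05 and 4.47 in replicates 1 and 2, mean 4.26 ± 0.302, SD, n = 2). Its highest gene, Mir137, had 166 and 108 CPM in replicates 1 and 2, and Mir204 had 88.9 and 99.2 CPM. No reads were counted for the 3 Mir124a copies and for Mir9-2, but these share sequence with other precursors and their reads may map to several places, so the list's share and the fold are uncertain. With such members left out, 4 genes remained in the list and the cluster was 33.5-fold higher (log2 ratio 5.06). Leaving genes out of the list cannot raise its share, so the fold could not fall. This alternative therefore does not measure the undercount. The part of neural tissue in the cluster's level was not tested. The cluster's share was 0.872% in replicate 1 and 0.891% in replicate 2, against 0.0528% and 0.0401% for the list. Of the list's 7 detected genes, 5 were lower and 2 higher in replicate 2. Over all 357 detected genes the median log2 ratio of replicate 2 over replicate 1 was 0.0061, so lower and higher were about equally common.

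For the 7 ratios between members or lists, 2-sided exact permutation tests, with libraries unpaired, gave p = 0.333 for 6 of them and p = 1.00 for the multiciliated list. Adjusted over the 7 by the Benjamini-Hochberg method these exact permutation values were 0.389 and 1.00. Each library supplies both sides of a ratio, and exact permutation by sign flips of the paired log2 ratios, chosen after the values were seen, gave p = 0.50 for the 6 and p = 1.00 for the multiciliated list. The values of 0.333 and 0.50 are the smallest that the unpaired and the paired test can give with 2 libraries, so neither could pass a threshold of 0.05. The 6 ratios had the same direction in 2 of 2 libraries.

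**Figure D4:**
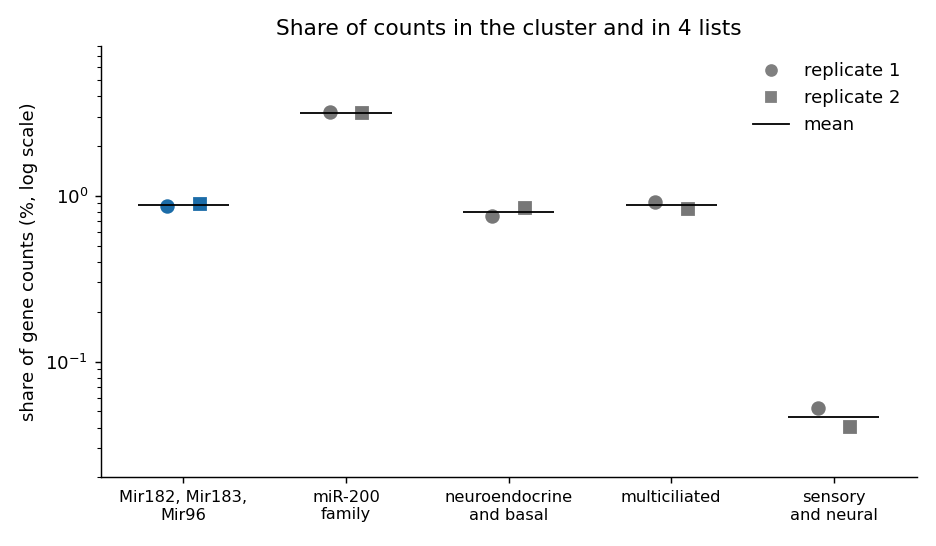
Share of all gene counts in percent, on a log axis, for the cluster (blue) and 4 lists (grey), with circles for replicate 1, squares for replicate 2 and a black line at the mean. The cluster, at 0.881%, lies below the miR-200 family at 3.17%, near the multiciliated list at 0.874% and far above the sensory and neural list at 0.0465%.

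The 3 members were closer to each other in level than the members of 13 of 14 other groups of neighbouring microRNA genes. Precursors were grouped where they lay on the same strand no more than 10000 bp apart, and 15 groups had at least 3 detected members. Highest over lowest was 3.18-fold in the cluster (Mir182 over Mir96), against a median of 94.0-fold in the 14 other groups, 13 of which exceeded 10-fold. The group of Mir293, of pluripotent cells, was the 1 group with a smaller fold, 3.09, from levels of at most 7.85 CPM, and so 6.67% of the 15 groups lay below the cluster. Only detected precursors enter the fold in any group. These were 3 of 7 precursors in the Mir293 group and 3 of 3 in the cluster. In the group of Mir429, Mir200b and Mir200a, of the miR-200 family, highest over lowest was 15.7-fold, and in the X-linked group of Mir532 and Mir362 it was 16.2-fold. The other groups hold up to 29 detected members, and highest over lowest can only grow as members are added. Among the 6 other groups with exactly 3 detected members, chosen after the values were seen, the median was 41.6-fold and again only the Mir293 group lay below the cluster. Some of the wide groups hold precursors that share sequence with others and can be undercounted. With those left out, 11 other groups were left with a median of 79.5-fold and the Mir293 group was again the only one below the cluster. With at least 100 counts required of a member, none of 10 other groups lay below it and the nearest was at 9.98-fold. The groups were described and not tested.

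**Figure D5:**
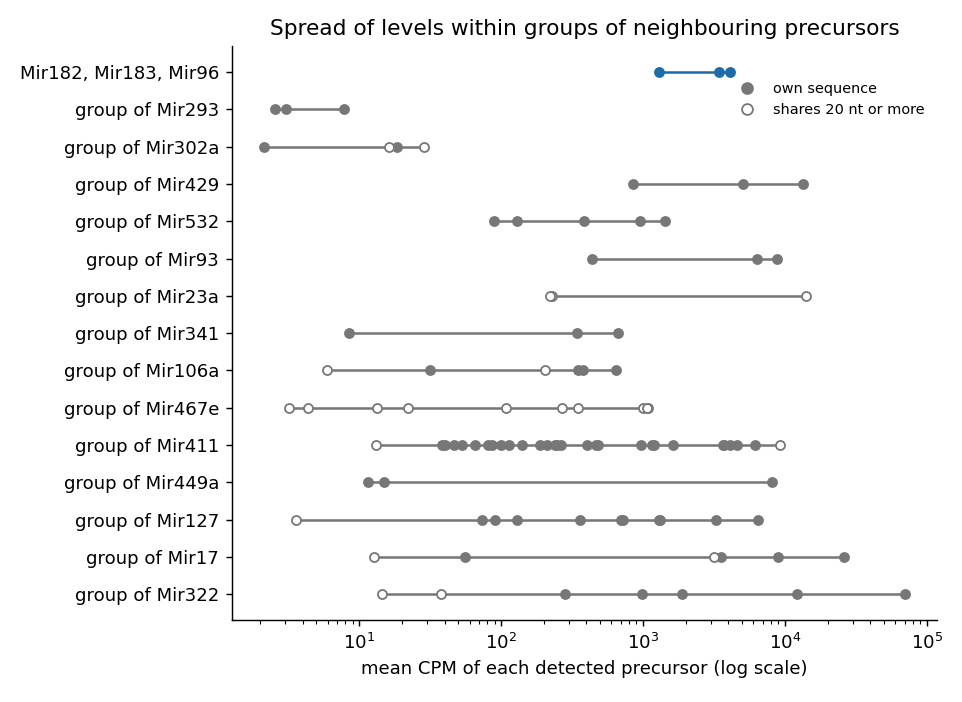
Mean CPM (log axis) of each detected precursor in the 15 groups of neighbouring precursors with at least 3 detected members, the cluster in blue at the top and the others in grey by increasing spread, named by their highest member. Open circles share at least 20 nt with another precursor. The cluster spans 3.18-fold, and the median of the others is 94.0-fold.

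Near the cluster on chromosome 6, 5 other microRNA genes of the table lie within 1000000 bp, and their levels ranged widely. Mir182 had 4062 and 4151 CPM in replicates 1 and 2, against 54398 and 56046 CPM for Mir335, which lies inside the imprinted gene Mest 571561 bp away. Mir29a, 892922 bp away, had 140 and 103 CPM. Mir29b-1 had 2 and 6 counts, Gm26220 had 1 and 2, and Gm23049 had 0 in both, and all 3 share sequence with other precursors.

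The genes with a shared seed were low. Gm24195, whose product miR-1271-5p has the seed of miR-96-5p, had 0 counts in both libraries, which allows up to 0.560 and 0.462 CPM (3 counts), and it shares no run of 20 nt with another precursor. Mir96 was therefore at least 2199-fold higher in replicate 1 and 2928-fold higher in replicate 2, by the same floor per library. Mir3475, whose product has bases 2 to 8 of miR-96-3p, had 27 and 38 counts, or 5.04 and 5.86 CPM.

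In level, the genes nearest to each member were of other families. Around Mir182 were Mir423 (4540 ± 575 CPM) and Mirlet7f-2 (4173 ± 301 CPM) above, and Mir369 (4103 ± 334 CPM) and Mir15a (4053 ± 96.3 CPM) below, and the replicates of each overlapped in range with those of Mir182. Around Mir183 were Mir125a (3542 ± 209 CPM) and Mir18 (3538 ± 105 CPM) above, and Mir140 (3345 ± 26.4 CPM) and Mir431 (3252 ± 25.3 CPM) below, of which Mir125a overlapped with it and Mir18, Mir140 and Mir431 did not. Around Mir96 were Mir181b-2 (1343 ± 105 CPM) and Mir337 (1311 ± 96.3 CPM) above, and Mir434 (1287 ± 15.7 CPM) and Mir134 (1203 ± 27.7 CPM) below (SD, n = 2 throughout), and Mir134 alone did not overlap with it. The likeness is the log2 ratio of mean CPM over 2 libraries, which lay between -0.10 and 0.14 for these 12 genes, and it says nothing beyond level. Mirlet7f-2 and Mir181b-2 share sequence with other precursors, so their places are uncertain.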

How the data were processed

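Small RNA with inserts under 30 nt, per the labels, was sequenced as 2 libraries. The authors deposited raw read counts per microRNA gene, made on mm10 with annotation M4, as the readmes say. The aligner, the counter and how they were set: not given in the sources used here. The tables each have 3 columns of counts (any strand, annotated strand, opposite strand, judged from their totals) and 4 summary lines, which were kept out of library sizes. The annotated strand was used. Of 1973 identifiers, 1894 matched GENCODE M21 without the version suffix.

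CPM was taken over all gene counts, with means and SDs over 2 replicates. No test across genes was made, since there is 1 group. Ratios were tested by exact permutation. Named genes were the members, the lists, the tissue check, the 2 genes above and below each member in level, the tabulated genes within 1000000 bp and those sharing a seed. Members and lists were chosen with earlier results of these data known. The interval for the ratio between libraries was tested on simulated counts that held counting error alone. That simulation covered neither the spread between pools nor the permutation tests. Alternatives were other strands, totals, count minimums, gaps, single libraries, edgeR 4.0.16 TMM and DESeq2 1.42.0 size factors. Python 3.11.15 with scipy 1.17.1, R 4.3.3 and RNAfold 2.7.2 were used.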

Additional observations from a re-analysis of the deposited data

Results flagged for a closer look

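Reads on the strand opposite to a member are outside the counts used above. In replicate 1 there were 6 such reads at Mir183 and 5 at Mir182, above the 3 counts that a count of 0 allows, while Mir96 had 0. Replicate 2 had 3 at Mir183, 3 at Mir182 and 0 at Mir96. Beside them stood 18345 and 21748 reads on the annotated strand of Mir183 and Mir182 in replicate 1. Over all genes, reads on the opposite strand were 2.91% of those on either strand in replicate 1 and 2.88% in replicate 2. The members thus lay far below that share.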

How the results depend on the processing

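Every ratio between members kept its direction in each library alone, without regard to strand and per base of the precursor. The ratio of the cluster over the multiciliated list turned between libraries and lay between -0.077 and 0.11 (log2) with 1 library left out. Levels moved with what the total holds. Without regard to strand Mir182 stood at 3988 CPM, Mir183 at 3317 CPM and the cluster at 0.856%. With Mir143, the highest gene, left out of the total, Mir182 stood at 4460 CPM, Mir183 at 3710 CPM, Mir96 at 1404 CPM and the cluster at 0.957%. Per 1000000 of all reads, Mir182 stood at 1948, Mir183 at 1620 and Mir96 at 614, and the cluster took 0.418%. These shifts follow from the larger or smaller totals. TMM and DESeq2 size factors moved no mean level by more than its SD. With TMM the median log2 ratio of the members between the libraries, that of Mir182, was 0.057 in place of 0.031, and the ratio of Mir183 turned from -0.0089 to 0.017 (0.0071 with DESeq2 size factors). With at least 100 counts required, 0 other groups had a smaller spread than the cluster in place of 1. Gaps of at most 3000 bp split the cluster and gave no value. With members that share sequence left out, the log2 ratio of the cluster over the sensory and neural list was 5.06, with 4 genes left in the list. Leaving genes out of the list cannot lower this ratio. With the libraries as a replicate block, sign flips of the paired ratios left each ratio as it was and gave p = 0.50 or 1.00 by exact permutation. With 2 libraries the precision rests on a spread of 2 values.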
